A study of Mus musculus with 4 samples.

Results

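Proneural genes of the basic helix-loop-helix (bHLH) class were followed in sorted cells of mouse retina. The group held 8 genes, Neurog2, Atoh7, Olig1, Olig2, Neurod2, Neurod4, Neurod6 and Ptf1a, out of 21828 genes in the deposited tables. They were chosen by symbol, and each was on 1 row with a usable status in all 4 libraries. Values are FPKM, fragment numbers scaled to the length of the exons and to the size of the library, which can be set side by side between genes.

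All 4 libraries came from retina of mice on the slc:ICR background at postnatal day 12. Dissociated cells were stained for Cd73, a surface enzyme of rod photoreceptors encoded by Nt5e, and sorted into Cd73-negative (Cd73N) and Cd73-positive (Cd73P) fractions. Each fraction was taken from wild-type (WT) retina and from Ezh2-cKO retina, giving 1 library for each of the groups Cd73N WT, Cd73N Ezh2-cKO, Cd73P WT and Cd73P Ezh2-cKO. In the conditional knockout, floxed Ezh2 alleles were combined with a Cre transgene driven by Dkk3, which is active in retinal progenitors from early embryonic life, so neurons and Müller glia descended from those progenitors share the deletion. Normal littermates served as WT. Ezh2 encodes the enzyme that methylates lysine 27 of histone H3 in Polycomb repressive complex PRC2. Whether retinas were pooled at this age, and how many, is not stated in the paper, which gives retina numbers for younger ages only. Since no group had a second library, differences have no replicate check, no test was possible, and every error below covers counting within a library only.

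Proneural bHLH proteins pair with broadly expressed E proteins, bind E-box sequences (CANNTG) and drive progenitors out of the cell cycle into particular fates. In the retina, Atoh7 is required for ganglion cells and Ptf1a for amacrine and horizontal cells, while Neurod4 acts in the formation of bipolar cells. Most of these genes are switched on for a short time in the embryo, but some Neurod genes persist in mature neurons. Id proteins lack the DNA-binding region and titrate E proteins, and Hes and Hey proteins are repressors downstream of Notch, so both families oppose proneural activity.

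The labels were checked first. Nt5e was at 0.844 and 0.609 FPKM in Cd73N WT and Cd73N Ezh2-cKO and at 125 and 123 FPKM in the corresponding Cd73P libraries, so the fraction labels held. Gene-level Ezh2 went from 14.1 to 15.9 FPKM between genotypes in Cd73N, against the label, and from 5.38 to 3.45 FPKM in Cd73P, so the knockouts are called the libraries labelled Ezh2-cKO. Reads of all exons enter this level, so it is silent on the floxed part of the gene. Summed FPKM of 4 Y-linked genes was 26.8 and 27.9 in the WT libraries against 0.716 and 0.496 in those labelled Ezh2-cKO. Xist, expressed in females, was at 52.2 and 47.0 FPKM in the WT libraries and at 240 and 95.6 FPKM in those labelled Ezh2-cKO. The WT libraries thus held both Y-linked and Xist RNA, and sex and genotype cannot be told apart. Depth relative to Cd73N WT, inferred from the deposited bounds, lay between 1 and 1.17. All 7 rod markers with a value in both WT fractions were higher in Cd73P and all 8 cone markers were higher in Cd73N. At the 1.5-fold threshold used below, 9.07% of all genes were higher in Cd73P in WT and 27.9% were lower.

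In mm9 coordinates, Neurod4 and Atoh7 share chromosome 10 and Olig1 and Olig2 are neighbours on chromosome 16. Neurod4 spans chr10:129705208-129717296 on the minus strand, Neurod2 chr11:98186731-98190959 on the minus strand, and Neurod6 chr6:55627813-55631257 on the minus strand. Neurog2 spans chr3:127336063-127338549 on the plus strand, Ptf1a chr2:19367290-19369128 on the plus strand, and Atoh7 chr10:62562904-62563353 on the plus strand. Olig2 (chr16:91225795-91228922, plus strand) ends 41.1 kb before Olig1 (chr16:91270014-91272184, plus strand). All 8 are short protein-coding genes of 1 or 2 exons. The Atoh7 row covered 450 bases in a single exon, of which 447 are coding in the GENCODE annotation of the same build, so its untranslated regions were hardly counted.

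Upstream sequences are shown for the 4 members that reached an FPKM of 1 in any library, because these are the genes called between fractions at the threshold used below. Each is the 250 bases before the annotated RefSeq start, written 5′ to 3′ on the strand of the gene, with every CANNTG E-box in capitals. The letters come from the RefSeq promoter table of build GRCm38.p6, and each stretch was found once in mm9 by exact match, at chr10:129717311-129717560 (minus) for Neurod4, chr11:98190960-98191209 (minus) for Neurod2, chr3:127335804-127336053 (plus) for Neurog2 and chr10:62562283-62562532 (plus) for Atoh7.
Neurod4: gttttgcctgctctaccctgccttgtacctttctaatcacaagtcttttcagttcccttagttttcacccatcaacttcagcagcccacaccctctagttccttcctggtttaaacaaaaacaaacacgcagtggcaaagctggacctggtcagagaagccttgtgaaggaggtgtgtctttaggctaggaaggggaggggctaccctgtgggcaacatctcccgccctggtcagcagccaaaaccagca
Neurod2: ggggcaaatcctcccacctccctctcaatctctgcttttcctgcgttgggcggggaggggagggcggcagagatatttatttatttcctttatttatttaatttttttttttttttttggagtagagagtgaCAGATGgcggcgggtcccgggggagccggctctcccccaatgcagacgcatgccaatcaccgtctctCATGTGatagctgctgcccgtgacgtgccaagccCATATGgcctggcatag
Neurog2: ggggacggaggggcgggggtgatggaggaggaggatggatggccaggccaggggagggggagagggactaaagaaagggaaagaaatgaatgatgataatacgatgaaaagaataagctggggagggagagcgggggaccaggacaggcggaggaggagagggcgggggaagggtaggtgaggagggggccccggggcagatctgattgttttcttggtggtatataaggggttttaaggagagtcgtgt
Atoh7: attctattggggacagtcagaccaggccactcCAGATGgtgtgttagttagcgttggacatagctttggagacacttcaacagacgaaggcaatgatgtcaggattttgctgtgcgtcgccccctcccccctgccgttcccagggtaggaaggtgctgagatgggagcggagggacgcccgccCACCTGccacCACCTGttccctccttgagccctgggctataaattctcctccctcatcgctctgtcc
The Atoh7 stretch lies upstream of the start given in the file, because the RefSeq transcript of the table begins before the coding row.

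The upstream stretches differed in composition among the 7 members in the promoter table, which are all but Olig1. CANNTG reads the same on both strands and was found in 66.2% of 32851 promoter stretches of the same length. Atoh7 held 3 matches (CAGATG once and CACCTG at the other places), Neurod2 held 3 (CAGATG, then CATGTG and last CATATG) and Neurod6 held 2 (CAAATG and CAGTTG). Neurod4, Neurog2, Olig2 and Ptf1a held 0, which says only that these letters are not in this window. CAGATG or its complement CATCTG was in 14.4% of promoters and CAGCTG, found in none of the 7, in 13.0%. CpG dinucleotides, whose density marks promoters that Polycomb complexes often occupy, numbered 22 in Olig2, 19 in Ptf1a, 11 in Neurod2, 9 in Atoh7, 8 in Neurog2, 3 in Neurod6 and 2 in Neurod4, against a median of 6. Neurod4 was thus the poorest of the 7 in CpG, and 18.8% of promoters held fewer.

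Neurod4 was by far the most abundant member, and it was concentrated in the Cd73N fraction. It stood at 350.4 FPKM in Cd73N WT, 261 FPKM in Cd73N Ezh2-cKO, 12.4 FPKM in Cd73P WT and 3.69 FPKM in Cd73P Ezh2-cKO. Both Cd73N values were far above both Cd73P values, and in each fraction the library labelled Ezh2-cKO was the lower. Neurod4 ranked 163 of 21711 genes by FPKM in Cd73N WT and 4666 in Cd73P WT. The deposited bounds were 327 to 334 and 244 to 250 in the Cd73N libraries, so both values lay above their own upper bound, and 11.2 to 12.6 and 3.22 to 4.01 in the Cd73P libraries.

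Neurod2, a factor of maturing neurons that in the retina is known from subsets of amacrine and ganglion cells, was the second most abundant member in Cd73N. It stood at 8.35 FPKM (bounds 7.45 to 8.73) in Cd73N WT and 9.96 FPKM (8.94 to 10.1) in Cd73N Ezh2-cKO. In Cd73P it was at 0.151 FPKM (0.0903 to 0.208) in WT and 0.0523 FPKM (0.0134 to 0.0872) in the library labelled Ezh2-cKO. The Cd73N bounds did not overlap those of Cd73P, and the last value rested on about 8.04 fragments by the width of its bounds.

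Neurog2, a proneural factor of dividing progenitors, was at 1.26 FPKM (0.984 to 1.4998) in Cd73N WT and 2.16 FPKM (1.76 to 2.55) in Cd73N Ezh2-cKO. In Cd73P it was at 0.0216 FPKM (0 to 0.0491) in WT and 0.0731 FPKM (0.0285 to 0.123) in the library labelled Ezh2-cKO. Its bounds were apart between the genotypes in Cd73N and overlapped in Cd73P, where about 2.47 and 9.49 fragments lay behind the values. Atoh7 was at 1.13 FPKM (0.384 to 1.39) and 1.604 FPKM (0.602 to 1.605) in the Cd73N libraries and at 0.176 FPKM (0 to 0.339) and 0.595 FPKM (0.140 to 0.889) in the Cd73P libraries, WT first. The Atoh7 bounds overlapped between the genotypes in both fractions, and between the fractions in the libraries labelled Ezh2-cKO.

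The remaining 4 members did not exceed 0.232 FPKM in any library. Olig2, which specifies oligodendrocytes and is also found in retinal progenitors, was at 0.232 FPKM (0.142 to 0.319) in Cd73N WT and 0.186 FPKM (0.111 to 0.259) in Cd73N Ezh2-cKO and was listed at 0 in both Cd73P libraries. Olig1, its neighbour on the chromosome and a factor of oligodendrocyte maturation, was at 0.0219 FPKM (0 to 0.0497) in Cd73N WT and 0.220 FPKM (0.133 to 0.299) in Cd73N Ezh2-cKO, and was listed at 0 in both Cd73P libraries too. The Olig1 bounds were apart between the genotypes, with about 2.49 and 28.0 fragments behind the values, while those of Olig2 overlapped.

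Neurod6, a factor of a subset of amacrine cells, was at 0.0332 and 0.0655 FPKM in Cd73N WT and Cd73N Ezh2-cKO, listed at 0 in Cd73P WT and at 0.0052 FPKM in Cd73P Ezh2-cKO. Ptf1a, the amacrine and horizontal cell factor, was listed at 0 in Cd73N WT and stood at 0.0138 FPKM in Cd73N Ezh2-cKO, 0.0334 FPKM (0 to 0.0722) in Cd73P WT and 0.177 FPKM (0.0838 to 0.265) in Cd73P Ezh2-cKO. Ptf1a was the only member whose highest value was in a Cd73P library, and about 15.3 fragments lay behind that value. At this depth such levels say little about whether a small number of cells carried the transcripts.

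**Figure D1:**
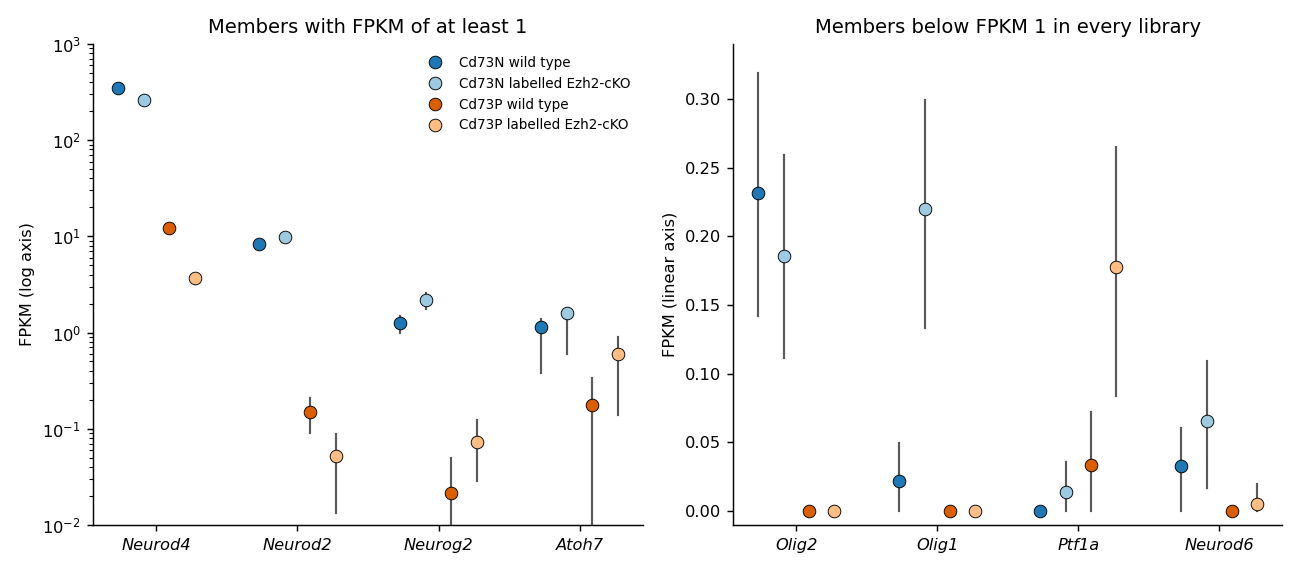
FPKM of the 8 members in each of the 4 libraries, with vertical lines for the deposited lower and upper bounds of each value, on a log axis (left, lines with a lower bound of 0 end at the axis) and a linear axis (right). Neurod4 stands above every other member in every library, at 350.4, 261, 12.4 and 3.69 FPKM, and 4 members do not exceed 0.232 FPKM in any library.

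By level, the order in Cd73N WT was Neurod4, Neurod2, Neurog2, Atoh7, Olig2, Neurod6, Olig1 and Ptf1a. Neurog2 and Atoh7 did not differ beyond their bounds there, nor did Neurod6 and Olig1. In Cd73N Ezh2-cKO the first 4 kept this order, with Neurog2 now above the upper bound of Atoh7, and the bounds of Olig1 and Olig2 overlapped. In Cd73P WT only Neurod4 exceeded 1 FPKM, and Atoh7 and Neurod2, next in order at 0.176 and 0.151 FPKM, had overlapping bounds. In Cd73P Ezh2-cKO Atoh7 was second at 0.595 FPKM, above Ptf1a at 0.177 FPKM, with overlapping bounds.

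The fractions were compared to see on which side of the Cd73 sort each gene lay. Ratios are given as log2(FPKM + 1), Cd73P over Cd73N, which understates differences of weakly expressed genes, and a gene was called at 1.5-fold on that scale. In WT, 0 of 8 members were called higher in Cd73P, where 9.07% of all genes were, and 4 of 8 were called lower, where 27.9% of all genes were. In the libraries labelled Ezh2-cKO the members counted 0 higher against 8.4% of all genes and 4 lower against 29.1%. The same 4 genes, Neurod4, Neurod2, Neurog2 and Atoh7, were called lower in both genotypes. The call of Atoh7 in the libraries labelled Ezh2-cKO was lost under median-ratio scaling, at -0.58, and where bounds must not overlap. The median log2 ratio of the 8 members was -0.58 in WT and -0.50 in the libraries labelled Ezh2-cKO, beside medians over all genes of -0.05 and -0.09. Among genes with at least 1 FPKM in 1 of the 2 libraries, 45.9% and 45.6% were called lower in Cd73P, so a low value in Cd73P was common in this sort. The 4 members at that level were the 4 called lower, and all but Neurod4 reached it in Cd73N only.

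Neurod4 showed the widest gap between the fractions on this scale. Its log2 ratio was -4.72 (SE 0.040) in WT and -5.81 (SE 0.061) in the libraries labelled Ezh2-cKO, and its FPKM was 28.3-fold and 70.8-fold lower in Cd73P. Among genes with at least 10 FPKM in 1 of the 2 libraries, 25 of 7124 had a lower ratio than Neurod4 in WT, and 7 of 7297 in the libraries labelled Ezh2-cKO. Neurod2 had log2 ratios of -3.02 (SE 0.062) and -3.38 (SE 0.046), with FPKM 55.5-fold lower in Cd73P in WT and 190-fold lower in the libraries labelled Ezh2-cKO. Its Cd73P level was therefore a smaller part of its Cd73N level than for Neurod4, although its ratio with the pseudocount was nearer to 0.

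Neurog2 and Atoh7 lay nearer to the detection limit, and their ratios were smaller. The log2 ratio of Neurog2 was -1.15 (SE 0.084) in WT and -1.56 (SE 0.096) in the libraries labelled Ezh2-cKO. Atoh7 had log2 ratios of -0.86 (SE 0.20) and -0.71 (SE 0.22). With a pseudocount of 5 in place of 1, only Neurod4 and Neurod2 remained past the threshold. The ratios of Olig1, Olig2, Neurod6 and Ptf1a lay between -0.30 and 0.22 on the log2 scale, and at such low levels none could pass.

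**Figure D2:**
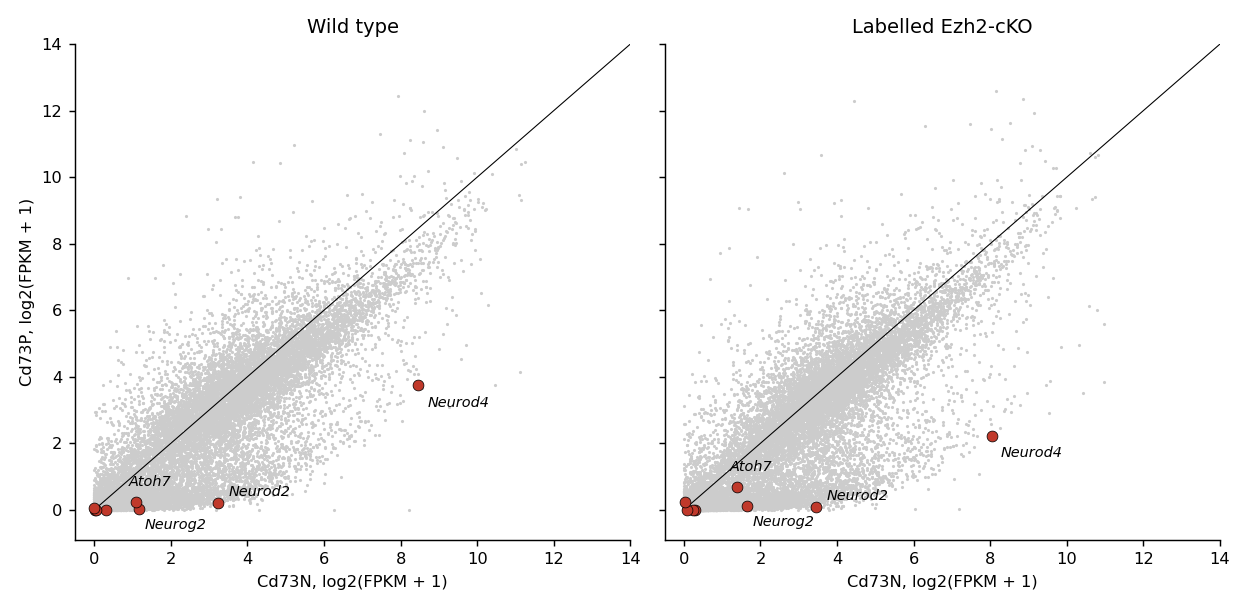
Level of each member in Cd73N (horizontal axis) against Cd73P (vertical axis) on the log2(FPKM + 1) scale in WT (left) and the libraries labelled Ezh2-cKO (right), with all other genes in grey and a line of equal level. Neurod4 and Neurod2 lie far to the right of that line, at log2 ratios of -4.72 and -3.02 in WT.

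The genotypes were compared within each fraction to see which members differed in the libraries labelled Ezh2-cKO. In Cd73N, 0 of 8 members were called higher, where 7.18% of all genes were, and 0 of 8 were called lower, where 1.71% of all genes were. In Cd73P, 0 of 8 were called higher against 2.26% of all genes, and 1 of 8, Neurod4, was called lower against 2.38%. With a pseudocount of 1, a gene too close to 0 in both libraries cannot reach 1.5-fold. That held for Olig1, Olig2, Neurod6 and Ptf1a in Cd73N, and for all members but Neurod4 and Atoh7 in Cd73P. Among genes with at least 1 FPKM in 1 of the 2 libraries, 11.6% were higher and 2.87% lower in Cd73N, and 4.32% and 4.53% in Cd73P. The median log2 ratio of the members was 0.14 in Cd73N and 0.0037 in Cd73P, and the median over all genes was 0 in both. Neurod4 was hence the only member that differed between genotypes by the threshold used.

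Neurod4 fell in Cd73P from 12.4 to 3.69 FPKM, a log2 ratio of -1.51 (SE 0.072), so the library labelled Ezh2-cKO was 3.35-fold lower by FPKM. In Cd73N it went from 350.4 to 261 FPKM, a log2 ratio of -0.42 (SE 0.011), which did not pass the threshold. Both Cd73N values lay above their own upper bound, so this SE may not cover their error. The ratio in Cd73P was lower than that in Cd73N by 1.09 on the log2 scale, a difference that could not be tested. Among genes with at least 10 FPKM in 1 of the 2 libraries, 20 of 5635 had a lower ratio than Neurod4 in Cd73P, and 820 of 6864 in Cd73N. The median log2 ratio of those genes was -0.05 in Cd73P and -0.16 in Cd73N. In bulk fractions, fewer cells of a type and less RNA per cell cannot be told apart.

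Of the other members, Neurog2 had the largest log2 ratio in Cd73N, at 0.48 (SE 0.12). Its FPKM was 1.71-fold higher in the library labelled Ezh2-cKO, but the difference did not pass on the scale used. Atoh7 had log2 ratios of 0.29 (SE 0.22) in Cd73N and 0.44 (SE 0.20) in Cd73P, the latter the largest positive ratio of a member in that fraction. Olig1 (0.26, SE 0.053), Neurod2 (0.23, SE 0.063) and Olig2 (-0.06, SE 0.069) also stayed below the threshold in Cd73N. In Cd73P the log2 ratio was 0.19 (SE 0.062) for Ptf1a and -0.13 (SE 0.045) for Neurod2.

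**Figure D3:**
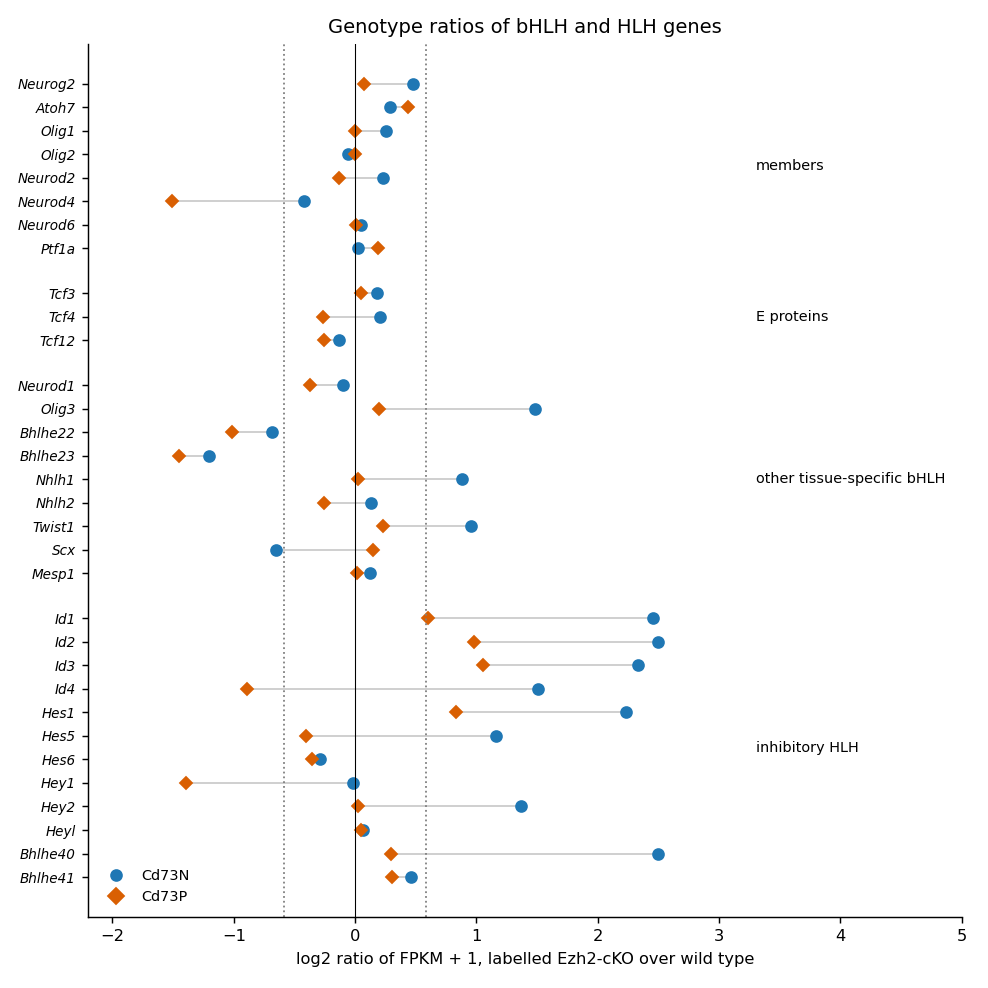
Log2 ratio of FPKM + 1, library labelled Ezh2-cKO over WT, in Cd73N and Cd73P for the 8 members and for most E protein, other bHLH and inhibitory HLH genes with at least 1 FPKM in any library. Dotted lines mark 1.5-fold, and Neurod4 is the only member outside them, at -1.51 in Cd73P.

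Bipolar and cone markers moved with Neurod4 in Cd73P. Between genotypes, 1.71% of all genes were called lower and 7.18% higher in Cd73N, and 2.38% and 2.26% in Cd73P. Of 8 bipolar markers, among them Grm6 and Cabp5, 5 were lower in Cd73N and 6 were lower in Cd73P in the libraries labelled Ezh2-cKO, and 0 were higher in either. Their summed FPKM was 1660 in Cd73N WT, 1016 in Cd73N Ezh2-cKO, 133 in Cd73P WT and 54.9 in Cd73P Ezh2-cKO, with none listed at 0. Of 8 cone markers, 3 were higher and 0 lower in Cd73N, while 0 were higher and 6 were lower in Cd73P. Cone markers summed to 3795, 5333, 251 and 115 FPKM in the same order of libraries, again with none at 0. The part of these cells in the Neurod4 values was not tested.

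The Cd73P level was also set against the Cd73N level of the same gene. The Cd73P level of Neurod4 was 3.53% of its Cd73N level in WT and 1.41% in the libraries labelled Ezh2-cKO. For the 8 bipolar markers this percentage had a median of 5.49 (1.17 to 94.3) in WT and 2.46 (0.9005 to 121) in the libraries labelled Ezh2-cKO, with Prkca, which rods also express, at the top of both ranges. For the 8 cone markers it was 5.83 (5.22 to 8.18) and 2.07 (1.76 to 2.34), and for the 8 Müller glia markers 6.71 (3.24 to 12.8) and 3.28 (2.17 to 5.44). Neurod2 was at 1.80% and 0.526%, below the range of cone and Müller markers in both genotypes. Among the members, Neurog2 (1.71% and 3.39%) and Atoh7 (15.5% and 37.1%) went the other way, on few Cd73P fragments, and Prkca and the rod marker median were also higher in the libraries labelled Ezh2-cKO.

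**Figure D4:**
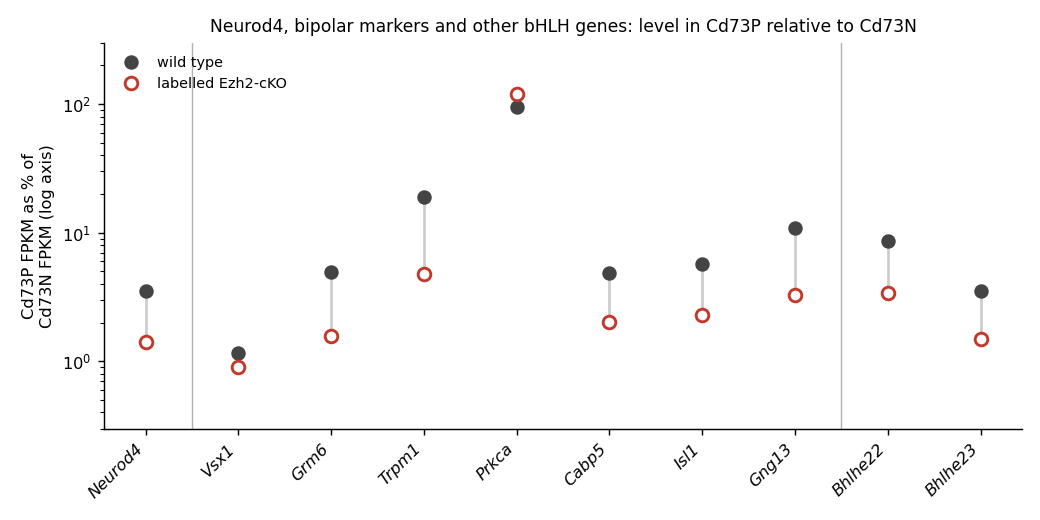
Cd73P level as a percentage of the Cd73N level, on a log axis, for Neurod4, bipolar markers, Bhlhe22 and Bhlhe23, with WT as filled and the libraries labelled Ezh2-cKO as open points. The open point is the lower for every gene shown except Prkca, and Neurod4 stands at 3.53% and 1.41%.

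Markers of the other cell types in which the members are known were mostly weak. In Cd73N WT and Cd73N Ezh2-cKO, the amacrine genes Gad1, Gad2 and Slc32a1, which make or load inhibitory transmitters, stood between 0.798 and 1.74 FPKM, and the list of 6 summed to 9.26 and 13.2 FPKM. In Cd73P that list summed to 26.5 and 22.0 FPKM, of which the glycine transporter gene Slc6a9 held 24.1 and 21.4. The ganglion list of 8 summed to 14.7, 41.2, 2.41 and 1.62 FPKM in the order Cd73N WT, Cd73N Ezh2-cKO, Cd73P WT and Cd73P Ezh2-cKO. The difference between the Cd73N libraries was mostly carried by Thy1, at 6.52 and 30.3 FPKM. Slc17a6 was also called higher (0.771 and 2.01 FPKM), while Sncg was called lower (2.04 and 0.682 FPKM). Pou4f1, Rbpms and Nefl had higher values in Cd73N Ezh2-cKO that did not pass the threshold. The defining factor Pou4f2, a target of Atoh7, was at 0.086 and 0.153 FPKM in Cd73N, and Pou4f3 was listed at 0 in all 4 libraries. Horizontal cell genes other than Prox1, which bipolar cells share, did not exceed 1.08 FPKM.

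Oligodendrocyte genes, set beside Olig1 and Olig2, summed to 47.2, 45.3, 9.09 and 7.30 FPKM over a list of 10 in the same order. The sum was carried by Mbp (23.8, 16.2, 5.99 and 3.65 FPKM) and Cnp, while Sox10, a defining factor of the lineage, did not exceed 0.087 FPKM in any library. Mog was listed at 0 in Cd73P Ezh2-cKO and Cldn11 in both Cd73P libraries. Cell-cycle and progenitor genes, set beside Neurog2 and Atoh7, summed to 19.9, 23.8, 2.29 and 2.21 FPKM over a list of 8, with Mki67 at 0.606 and 0.632 FPKM in the Cd73N libraries. Ccnd1, which Müller glia also express, was the highest of them and the only one called between genotypes, from 9.06 to 14.5 FPKM in Cd73N.

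The partners and relatives of the members were then read from lists. All 3 E protein genes were present in every library, and none was called between genotypes. Tcf4 was at 25.8, 30.0, 7.49 and 6.09 FPKM and Tcf3 at 12.5, 14.2, 6.01 and 6.27 FPKM in the order of libraries above. Both were lower in Cd73P in each genotype, whereas Tcf12 was higher there in WT (21.3 in Cd73N and 34.5 FPKM in Cd73P) with a log2 ratio of 0.67 (SE 0.036).

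Among 21 other tissue-specific bHLH genes, 5 were higher and 3 lower in Cd73N Ezh2-cKO, where 7.18% and 1.71% of all genes were, and the median of their log2 ratios was 0.12. Olig3, a relative of Olig1 and Olig2, rose from 0.014 to 1.83 FPKM, and Nhlh1, Twist1 and Tal1 also rose. Bhlhe23, required by rod bipolar cells, fell from 98.7 to 42.3 FPKM (log2 ratio -1.20, SE 0.030), and Bhlhe22, a factor of amacrine and bipolar subsets, fell from 22.8 to 13.8 FPKM (log2 ratio -0.68, SE 0.048). The third gene that fell was Scx, from 5.76 to 3.31 FPKM.

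In Cd73P, where 2.26% of all genes were higher and 2.38% lower, the same list held 0 higher and 2 lower genes, Bhlhe23 (3.47 to 0.636 FPKM) and Bhlhe22 (1.98 to 0.472 FPKM). Neurod1, the family member that photoreceptors maintain, was placed opposite to Neurod4 and Neurod2 by the sort. It was at 102 FPKM in Cd73N WT, 94.7 FPKM in Cd73N Ezh2-cKO, 440 FPKM in Cd73P WT and 339 FPKM in Cd73P Ezh2-cKO. Both Cd73P values exceeded both Cd73N values, with log2 ratios of 2.104 (SE 0.018) and 1.83 (SE 0.019), and the genotypes did not differ past the threshold. Of the 21 genes, 2 were higher in Cd73P in each genotype, Neurod1 and Mesp1, and 6 were lower in WT and 8 in the libraries labelled Ezh2-cKO (all genes 9.07% higher and 27.9% lower in WT, 8.4% and 29.1% in the others). Neurog1 and Atoh1 were listed at 0 in all 4 libraries.

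Of 12 inhibitory HLH genes, 8 were higher and 0 lower in Cd73N Ezh2-cKO, where 7.18% and 1.71% of all genes were, and the median of their log2 ratios was 1.44. Id3 rose from 46.9 to 240.1 FPKM (log2 ratio 2.33, SE 0.038), Id1 from 25.0 to 142 FPKM (2.46, SE 0.060) and Hes1 from 16.2 to 80.0 FPKM (2.23, SE 0.059). Hes6, which promotes neuronal differentiation rather than opposing it, went from 92.3 to 75.5 FPKM and did not pass, nor did Hey1, Heyl and Bhlhe41. In Cd73P, 4 were higher (Id1, Id2, Id3 and Hes1) and 2 lower (Id4 and Hey1), where 2.26% and 2.38% of all genes were, with a median of 0.17. Müller glia express many of these genes. All 8 Müller markers were higher in Cd73N Ezh2-cKO and 6 of them in Cd73P Ezh2-cKO. They summed to 670 FPKM in Cd73N WT, 3844 in Cd73N Ezh2-cKO, 57.8 in Cd73P WT and 143 in Cd73P Ezh2-cKO, with none at 0. The part of Müller glia in the values of the inhibitory genes was not tested.

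Of 14 genes known to act downstream of or beside the members, 1 was lower in Cd73N Ezh2-cKO (all genes 1.71%) and 2 were lower in Cd73P Ezh2-cKO (all genes 2.38%), and 0 were higher in either. Isl1, a factor of bipolar, amacrine and ganglion cells that is also in the bipolar list, fell from 217 to 109 FPKM in Cd73N (log2 ratio -0.98, SE 0.019) and from 12.3 to 2.52 FPKM in Cd73P (-1.92, SE 0.087). Dll1, a Notch ligand induced by proneural factors, fell from 1.72 to 0.274 FPKM in Cd73P (-1.09, SE 0.084). Insm1, a zinc-finger factor of neuronal differentiation, was higher in Cd73P in both genotypes, at 8.77 FPKM in Cd73N WT and 120.0 FPKM in Cd73P WT. Gfi1 and Nkx2-2 were listed at 0 in all 4 libraries.

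The genes most like Neurod4 and Neurod2 were found by the Euclidean distance of log2(FPKM + 1) over the 4 libraries among 21515 genes. For Neurod4 they were Tubb2a (distance 0.343), Trnp1 (0.495) and the bipolar marker Cabp5 (0.598). Tubb2a stood at 376, 302, 11.6 and 4.53 FPKM in the order of libraries above, and Cabp5 at 327, 187, 15.9 and 3.78 FPKM. Cabp5 was called lower between genotypes in Cd73N (log2 ratio -0.80), where Neurod4 was not (-0.42). For Neurod2 they were Lingo1 (0.148), Rgs4 (0.229) and Grin1 (0.234), all genes of neurons. The distance rests on 4 single libraries and describes these only.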

How the data were processed

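Poly(A) RNA of the 4 sorted fractions was sequenced as 36-base single-end reads, without strand marking stated. According to the methods and processing notes, the authors aligned reads to mm9 with TopHat2 2.0.8b, with at most 50 hits kept for a read, and obtained FPKM from Cufflinks 2.1.1 (bcl2fastq 1.8.4 made the read files). The deposited tables hold FPKM with lower and upper bounds and a status for 23021 rows per library. FPKM was not scaled between libraries, and total reads are unknown. Relative depth and the fragments behind a value were inferred from the bounds and are approximate, since 25.0% to 27.8% of OK rows above 1 FPKM lay above their own upper bound.

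With Python 3.11.15, numpy 2.4.6 and pandas 2.3.3, rows sharing a symbol were summed (234 symbols), 730 small RNA symbols were left out, and genes of status other than OK in a pair were not compared. Ratios used log2(FPKM + 1) and a 1.5-fold threshold. The SE of a ratio takes the width of the bounds as 4 SE and covers counting error only. Where a value lay outside its own bounds, as for Neurod4 in Cd73N, the SE may not cover the error of that value. The calls were checked on simulated data, with changes placed only in genes of at least 10 FPKM on average in Cd73N. Of the members only Neurod4 reached that level, so recovery of changes was not checked for the others. All 8 members are named, and from the lists those highest or past the threshold. For members reaching 5 FPKM the 3 nearest single-row genes are named. Members, lists and tests were chosen with earlier results of these data known. Groups were taken from sample titles, and coordinates have 1 added to the listed start. Some listed genes enter counts and sums but are not reported here by name. Alternatives are described in the closing section.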

Additional observations from a re-analysis of the deposited data

Results flagged for a closer look

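Among the inhibitory HLH genes, 2 moved in opposite directions in the fractions. Id4 went from 2.58 to 9.16 FPKM between WT and the library labelled Ezh2-cKO in Cd73N. In Cd73P it went from 2.62 to 0.953 FPKM, so the log2 ratio in Cd73P was -2.39 relative to that in Cd73N. In Cd73N, Hes5 stood at 9.05 FPKM in WT and 21.4 FPKM in the library labelled Ezh2-cKO, both above their own upper bound. In Cd73P it stood at 2.12 and 1.36 FPKM, a difference of -1.56 between the log2 ratios, although its Cd73P ratio did not pass the threshold. With 1 library per group these differences were not tested.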

How the results depend on the processing

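The 22 member ratios that had a value kept their sign in 117 of 117 alternatives. Changing or dropping the pseudocount, or taking rows of every status, could not change a sign. Only scaling by the median ratio or the FPKM sum could have done so. The log2 ratio of Neurod4 between genotypes in Cd73P ranged from -1.74 to -0.998. Counts of called members depended on the pseudocount. With 0.1, between genotypes 2 were higher in Cd73N (Neurog2 and Olig1), where 3253 of 21702 genes were. In Cd73P, 2 were higher (Atoh7 and Ptf1a) and 2 lower (Neurod2 and Neurod4), where 1430 and 1712 of 21703 genes were. Between fractions in the libraries labelled Ezh2-cKO, 1 was higher (Ptf1a) and 7 were lower in Cd73P. Over all genes, 2390 and 8563 of 21700 were. With 5, 2 were lower in Cd73P in each genotype. Over all genes, 3976 of 21701 were in WT and 4070 of 21700 in the libraries labelled Ezh2-cKO. Without a pseudocount, over members with at least 1 FPKM in both libraries, 1 was higher in Cd73N Ezh2-cKO (Neurog2) and 1 was lower in Cd73P in each genotype (Neurod4). Over all genes with that minimum, 1418 were higher in Cd73N Ezh2-cKO. Lower in Cd73P were 4031 in WT and 3610 in the libraries labelled Ezh2-cKO. Requiring 10 FPKM in 1 of the 2 libraries, chosen after seeing the data, also left 1 lower in Cd73P in each genotype. Over all genes at that level, 3302 of 7124 were in WT and 3072 of 7297 in the libraries labelled Ezh2-cKO. Atoh7 lost its call between fractions in the libraries labelled Ezh2-cKO under median-ratio scaling and non-overlapping bounds, and in both genotypes with a 2-fold threshold. The other counts of members stayed within 1.5-fold of those reported under scaling by the median ratio or the FPKM sum, a 2-fold threshold, a minimum of 1 FPKM, bounds that must not overlap and rows of every status. Over all genes, the counts ranged from 553 to 3253 higher and 71 to 766 lower in Cd73N Ezh2-cKO, and from 162 to 1430 higher and 116 to 1712 lower in Cd73P Ezh2-cKO. Between fractions, 1074 to 3211 genes were higher and 3302 to 8071 lower in Cd73P in WT, and 1047 to 2605 and 3072 to 8563 in the libraries labelled Ezh2-cKO. Scaling shifted log2 ratios by at most 0.15 between genotypes and 0.42 between fractions. No paired analysis was possible because the labels carry no replicate numbers that pair samples and each group holds 1 library. The 4 members that did not exceed 0.232 FPKM rest on few fragments.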

Other observations

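In Cd73P the FPKM ratio of the library labelled Ezh2-cKO to WT was 3.38 for Neurog2, Atoh7 and Scx, all read at few fragments. At so few fragments an FPKM can take few values, so the equal ratios were not read as a shared change. Other HLH genes lay on the Cd73P side of the sort. Bhlhe41, a repressor of the circadian clock, was at 7.69 and 10.9 FPKM in Cd73N WT and Cd73N Ezh2-cKO and at 29.7 and 36.8 FPKM in the corresponding Cd73P libraries. Mesp1, known from early mesoderm, was at 0.148, 0.248, 2.91 and 2.95 FPKM in the same order.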
